A study of Homo sapiens with 41 samples.

Results

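The genes described here encode 8 transcription factors of the luminal epithelium of the breast, ESR1, GATA3, FOXA1, TFAP2C, TRPS1, SPDEF, XBP1 and ELF3. They were taken by name, as 8 of the 19974 protein-coding genes of the RefSeq table on chromosomes 1 to 22 and X, and their hg38 spans were used throughout. T47D, a cell line from a human luminal breast carcinoma that carries the oestrogen receptor, was grown without steroid hormones and held overnight without serum, so that cells of every group, controls included, were steroid depleted and synchronised in G0/G1. Chromatin immunoprecipitation with sequencing was deposited as 29 peak lists, each from 1 library, with 13 lists for CTCF, 12 for RAD21 and 4 for RNA polymerase II (Pol II). The untreated group had 3 CTCF, 3 RAD21 and 2 Pol II libraries. Cells exposed to 110 mM NaCl, which makes the medium hyperosmotic, gave 2 CTCF libraries at 7.5 min, 1 at 30 min and 3 at 1 h, with 3 RAD21 and 2 Pol II libraries at 1 h. Cells moved back to isotonic medium for 1 h after 1 h of NaCl (recovery) gave 3 RAD21 libraries and 1 CTCF library. Pre-treatment for 2 h with 500 nM triptolide, which blocks the start of transcription, gave 1 CTCF and 1 RAD21 library each untreated, at 1 h of NaCl and in recovery. All libraries come from 1 cell line, and nothing in the labels says that replicates were separate cultures, so the spread between them may be technical.

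Luminal breast cells keep their identity through a network of factors that bind enhancers together. ESR1 encodes oestrogen receptor alpha, the receptor through which oestrogen acts. FOXA1 is a forkhead protein that opens chromatin for the receptor, and GATA3 is a zinc-finger protein needed for luminal differentiation. TFAP2C (AP-2 gamma) and TRPS1, an atypical GATA-family repressor, bind many of the same enhancers. SPDEF and ELF3 are epithelial ETS factors, and XBP1 is the bZIP factor of the unfolded protein response, also known as a target of the receptor. Pol II marks genes that are being transcribed. CTCF is the insulator protein at which loop extrusion stops, and RAD21 is a subunit of cohesin, the ring that extrudes the loops.

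The spans ranged from 5.698 kb for FOXA1 to 472.948 kb for ESR1. ESR1 lies on chromosome 6 (151656672 to 152129619), GATA3 on chromosome 10 (8045333 to 8075198), FOXA1 on chromosome 14 (37589552 to 37595249) and TFAP2C on chromosome 20 (56629306 to 56639283). TRPS1 lies on chromosome 8 (115408496 to 115668975), SPDEF on chromosome 6 (34537802 to 34556329), XBP1 on chromosome 22 (28794560 to 28800569) and ELF3 on chromosome 1 (202010587 to 202017183). Some spans touch other genes. The end of ESR1 overlaps SYNE1, TTC6 begins 0.38 kb from FOXA1, ELF3-AS1 ends 0.234 kb from ELF3, and GATA3-AS1 and TRPS1-AS1 lie within their namesakes, so a peak or region there cannot be assigned to 1 gene.

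The lists hold no read totals, and their sizes differ. CTCF lists held 20678 to 59843 peaks, RAD21 lists 3344 to 40969 and Pol II lists 88046 to 216968 regions. The Pol II regions covered 292 and 257 Mb in the untreated libraries and 212 and 262 Mb at 1 h, and a deposited −log10 q under 1.3 was attached to 50.0 and 48.5% of untreated and to 80.0 and 92.4% of 1 h regions. A number of peaks or a covered length therefore moves with how much was called in a library. The label was checked with luminal markers. The list held 9, of which ESR1, GATA3 and FOXA1 are among the genes described here and were left out. The mean Pol II coverage of the other 6 was 65.0 and 59.6% of the span untreated, with 3 of 6 above 50% in both libraries, against 8.19 and 14.6% for 14 basal and mesenchymal genes, although KRT18 was at 0 in all 4 lists. At 1 h the mean of the 6 was 22.1 and 25.5%. Over the same libraries the mean of 6 haematopoietic genes went from 14.2 and 9.93% to 44.2 and 56.5%, that of 4 endothelial genes from 1.64 and 1.02% to 8.62 and 14.2%, and that of 3 neuronal genes from 37.5 and 35.3% to 8.48 and 7.40%. The part of these shifts in the values below was not tested.

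In the full lists, Pol II regions of untreated cells covered nearly the whole span of 6 of the 8 genes and much of ESR1. SPDEF was not covered at all. After 1 h of NaCl both libraries lay below both untreated ones at ESR1, GATA3 and TRPS1, and both lay above at SPDEF. Thus 3 of 8 genes were lower, beside 38.7% of the 18148 genes with coverage in any list, and 1 of 8 was higher, beside 17.7%. Both shares are close to what these libraries gave over all genes. The median change was −11.97 percentage points over the 8 genes and −3.92 points over all genes tested. With 2 libraries against 2, the exact 2-sided permutation test cannot go below p = 0.33, which each of these 4 genes reached. Fewer cells with Pol II on a gene and less Pol II per cell cannot be told apart in such bulk material.

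ESR1 was covered over 70.7 and 68.5% of its span in the untreated libraries and over 31.1 and 31.2% at 1 h. The change was −38.44 points, with SDs of 1.62 untreated and 0.103 at 1 h (n = 2 each), so the groups lay far apart for the spread within them. The loss of coverage was uneven along the gene. In 5 equal pieces of 94.6 kb counted from the start, piece 1 had 18.6 and 14.1% untreated and 12.6 and 14.8% at 1 h. Piece 3 went from 97.3 and 97.8% to 13.8 and 6.79%, and piece 4 from 98.8 and 100% to 38.2 and 31.3%. Piece 5, at the end of the gene, was covered over 83.2 and 81.5% untreated and over 73.4 and 94.7% at 1 h, where the groups overlapped. Piece 2 went from 55.9 and 48.9% to 17.4 and 8.66%. The loss in the full lists thus lay in pieces 2 to 4, coverage at 1 h was low from the start through piece 3, and the end remained covered. The region over piece 5 in 1 h replicate 1 had a −log10 q of 0.173. That over pieces 4 and 5 in untreated replicate 2 had 0.159. With regions of at least 1.3 alone the end was therefore uncovered in these libraries, and the change over the span was −36.42 points.

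The start windows of ESR1 differed in Pol II. RefSeq (GRCh38.p14) lists 6 start windows for the gene, each of 300 bases around a start. The window at chr6:151656422-151656721, at the outermost start, overlapped no Pol II region in any of the 4 lists. The window at chr6:151690277-151690576 was overlapped in 1 of 2 untreated and in both 1 h libraries, and it held CTCF in 2 and RAD21 in 1 of the 3 untreated libraries and neither at 1 h. The Pol II regions over this window had a −log10 q of 0.196 untreated and of 0.183 and 0.0621 at 1 h. The 4 windows between 151805455 and 151809156 were overlapped in both untreated libraries and in neither 1 h library. Those untreated regions had a −log10 q of 0.804 in replicate 1 and 3.39 in replicate 2. With regions of at least 1.3 alone, these 4 windows were overlapped in untreated replicate 2 alone. Of these the following window is shown, on the plus strand, because it holds a match to the core letters of the CTCF motif, CCANNAGNNGGC, found in 2.41% of 35116 RefSeq start windows when both strands are searched. Capitals mark that match, a CCAAT box (CCAAT, found in 34.6% of windows) and a GC box (GGGCGG, in 45.0%). No CTCF peak overlapped this window in any untreated or 1 h library.
ESR1 start, chr6:151807432-151807731: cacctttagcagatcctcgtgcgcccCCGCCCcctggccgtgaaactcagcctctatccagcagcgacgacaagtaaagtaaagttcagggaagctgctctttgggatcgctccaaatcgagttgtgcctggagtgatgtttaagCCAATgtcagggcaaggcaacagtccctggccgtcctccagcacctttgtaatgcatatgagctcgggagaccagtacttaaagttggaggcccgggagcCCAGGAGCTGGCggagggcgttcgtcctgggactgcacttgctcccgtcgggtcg

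TRPS1 lay inside 1 region of 361.114 kb in untreated replicate 1 and of 360.896 kb in replicate 2, so that 100% of its span was covered in both. At 1 h 48.5 and 56.3% was covered, a change of −47.61 points with an SD of 5.53 (n = 2). The remaining coverage was on the side of the lower coordinates. Counted from there in 5 pieces of 52.1 kb, pieces 1 and 2 were wholly covered in all 4 libraries, piece 3 went from 100% to 42.4 and 61.9%, piece 4 to 0 and 6.34% and piece 5 to 0 and 13.3%. The 10 kb flank on the lower side was covered whole in all 4 libraries and that on the higher side went from 100% in both to 0 in both. The 1 h region on the lower side had a −log10 q of 1.56 in replicate 1 and 0.886 in replicate 2. With regions of at least 1.3 alone, 1 h replicate 2 had no coverage on the span, and the change was −75.76 points.

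GATA3 was wholly covered in both untreated libraries, by single regions of 37.7 and 43.8 kb, and over 85.0 and 67.2% at 1 h. The change was −23.94 points with an SD of 12.6 at 1 h (n = 2). Here the order along the gene was the opposite of that at ESR1. Pieces 1 to 3 of 5, counted from the start, stayed at 100% in every library. Piece 5 went to 24.8 and 0%. The regions on the span had a −log10 q of 5.44 and 3.08 untreated and of 0.804 and 0.657 at 1 h. With regions of at least 1.3 alone the change was −100 points, so no piece remained covered at 1 h and the order along the gene was lost. When coverage was divided by the length that each list covers, the groups at GATA3 overlapped and only ESR1 and TRPS1 were lower, beside 36.2% of genes.

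FOXA1 split the 1 h libraries. Its span was covered whole in both untreated libraries and in 1 h replicate 2, and not at all in 1 h replicate 1. The untreated regions were 208.54 and 208.247 kb wide and reached into TTC6, ending within it. The region of 1 h replicate 2 was 14.741 kb wide, with a fold enrichment of 1.06 and a −log10 q of 0.0442. The authors' fold enrichment is the peak's own value and is used only within its list. XBP1 and ELF3 were covered whole in all 4 libraries, and TFAP2C over 100 and 86.7% untreated and 100% in both 1 h libraries. The regions on TFAP2C had a −log10 q of 0.489 in untreated replicate 1 and of 0.200 and 0.298 in replicate 2. At 1 h they had 0.564 and 0.637, so with regions of at least 1.3 alone its span was uncovered in all 4 libraries. A gene already at 100% cannot show an increase, and 66.2% of the 1587 genes that were whole in both untreated libraries were lower in both 1 h libraries. Of the 5 luminal factor genes of that kind, GATA3 and TRPS1 were.

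At XBP1 the regions were narrower at 1 h around a span that stayed covered: 26.7 and 53.6 kb untreated, 13.7 and 9.92 kb at 1 h. Their −log10 q values were 2.67 and 5.97 untreated and 0.0781 and 0.0004 at 1 h. At ELF3 the single region was 32.3 and 40.1 kb wide untreated and 97.4 and 33.4 kb at 1 h, with −log10 q of 2.17 and 0.109 against 0.443 and 9.79. When only regions with a −log10 q of at least 1.3 were kept, FOXA1 and XBP1 joined ESR1, GATA3 and TRPS1 as lower, 5 of 8 beside 41.2% of genes.

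SPDEF was the exception in the other direction. No region touched it in either untreated library, and 11.4 and 80.7% of its span was covered at 1 h. The difference between the 1 h libraries (SD 49.0, n = 2) exceeded the mean change of 46.06 points. In replicate 1 the coverage lay in the last of 5 pieces alone, at 57.2%, whereas replicate 2 had 64.5 to 100% in every piece. The highest −log10 q of any of these regions was 0.311, so with regions of at least 1.3 alone the change was 0. Among the 3465 genes without coverage untreated, 19% were higher in both 1 h libraries.

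**Figure D1:**
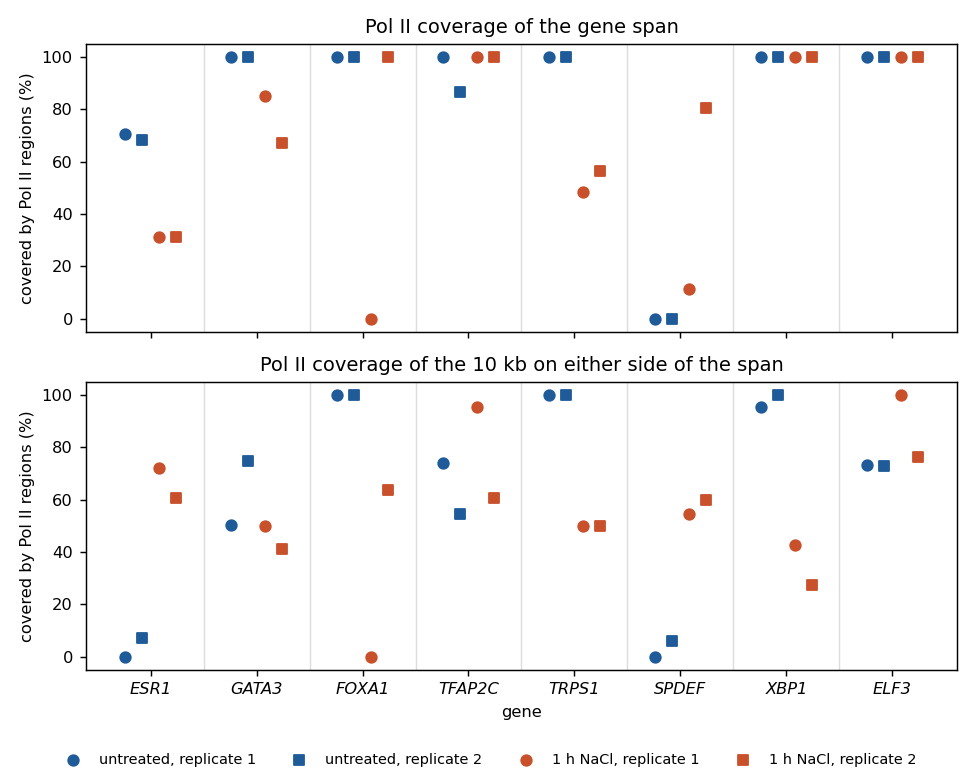
Percent of the gene span (top) and of the 10 kb on either side (bottom) covered by Pol II regions at each of the 8 genes, 1 point per library, circles for replicate 1 and squares for replicate 2. Blue untreated points lie above orange 1 h points at ESR1, GATA3 and TRPS1 in the top panel, and at FOXA1 the 1 h libraries stand at 0 and 100%.

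**Figure D2:**
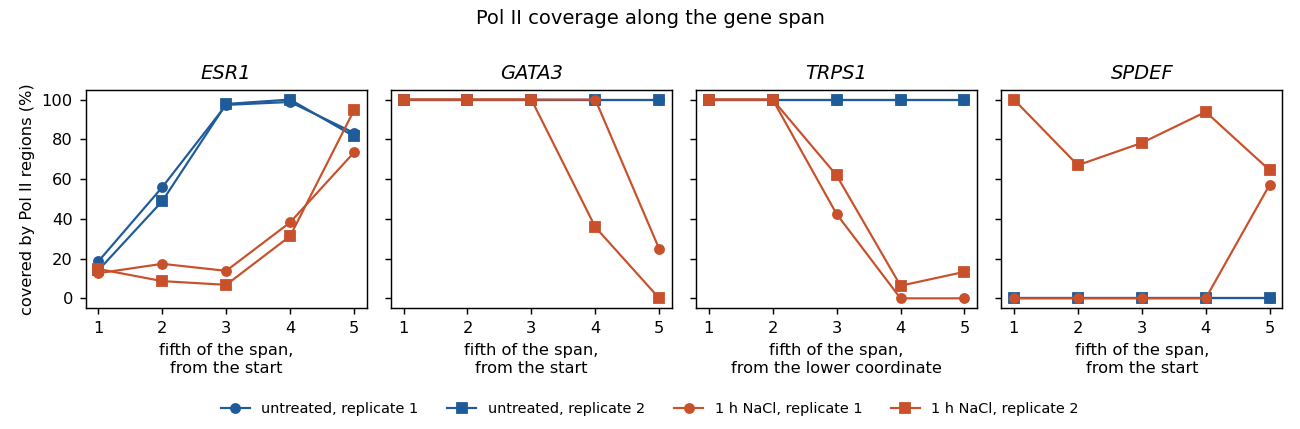
Percent of each of 5 equal pieces of the span covered by Pol II regions in the 4 libraries, for ESR1, GATA3 and SPDEF from the start and for TRPS1 from the lower coordinate. The 1 h lines are low from the start to the middle of ESR1, where the untreated lines rise, at the end of GATA3 and on the higher-coordinate side of TRPS1.

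The 10 kb flanks moved in both directions. GATA3, FOXA1, TRPS1 and XBP1 were lower in both 1 h libraries, 4 of 8 beside 41.7% of 18852 genes, and ESR1, SPDEF and ELF3 were higher, 3 of 8 beside 15.1%. TFAP2C overlapped. In 1 h replicate 1 the highest −log10 q of a flank region was 0.173 at ESR1, 0.513 at SPDEF and 0.443 at ELF3. With regions of at least 1.3 alone, none of these 3 genes was thus higher in both 1 h libraries. At FOXA1 the flanks were covered whole untreated and over 0 and 63.7% at 1 h. At XBP1 they went from 95.5 and 100% to 42.6 and 27.5%. With flank coverage divided by the length each list covers, GATA3 overlapped and 3 genes were lower, beside 38% of genes.

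The start table gives a strand for 6 of the genes, which separates the flank before the start from that past the end. Past the end, ESR1, SPDEF and ELF3 were higher at 1 h and GATA3, FOXA1 and XBP1 lower, 3 of 6 in each direction, beside 12.6% of 13816 genes that were higher and 37.9% that were lower. At ESR1 none of the 10 kb past the end was covered untreated, and all of it was covered in both 1 h libraries. This flank lies within SYNE1. At SPDEF the same flank went from 0 in both to 89.9 and 91.9%, and it reaches into PACSIN1, 2.579 kb away. At ELF3 it went from 46.25 and 45.6% to 100% in both. The opposite was seen at GATA3, with 70.3 and 100% untreated and 0 and 4.58% at 1 h. Each of these 6 comparisons reached the smallest exact permutation p of 0.33 (2-sided, n = 2 against 2). When regions with a −log10 q under 1.3 were left out, none of the 3 was higher in both 1 h libraries. In 1 h replicate 2 the regions past the end of ESR1 (−log10 q 1.76) and of ELF3 (9.79) remained.

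Before the start, ESR1, GATA3 and SPDEF were higher at 1 h, 3 of 6 beside 14.7% of 14171 genes, and FOXA1 and XBP1 were lower, 2 of 6 beside 33.1%. The 1 h regions there had a −log10 q of at most 0.258 at ESR1 and 0.0718 at SPDEF. Untreated replicate 2 held a region with 1.36 at ESR1 and with 2.97 at SPDEF. With regions of at least 1.3 alone neither gene was thus higher, nor was GATA3 in both 1 h libraries. GATA3 went from 30.3 and 49.3% to 100 and 77.6%. In 1 h replicate 1 a single region (−log10 q 0.804) ran across the start. In 1 h replicate 2 the region over the span began at 8043556, nearer the start than in untreated replicate 2 (8042046). Separate regions further upstream (8033412 to 8040765 and 8042125 to 8042673) made up the rest. They overlap the long non-coding RNA gene LOC105376394 (8035595 to 8042884). XBP1 went from 91.1 and 100% to 33.95 and 37.3%. ELF3 overlapped, with 100% untreated and 100 and 52.4% at 1 h.

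Other genes of the same network and genes of another cell type give the setting. Of 26 other luminal network genes 25 had coverage in any list. Of these 17 were lower in both 1 h libraries, 1 was higher and 7 overlapped, with a median change of −35.31 points. Over all genes with coverage in any list 38.7% were lower and 17.7% higher. Among genes covered whole in both untreated libraries, as EHF and TFF3 were, 66.2% were lower. The 5 with the largest change were EHF (an epithelial ETS factor), ELF5 (the ETS factor of alveolar cells), TFF3 (a trefoil peptide), GRHL2 (an epithelial grainyhead factor) and CDH1 (E-cadherin). EHF changed by −96.38 points, ELF5 by −93.01, TFF3 by −89.21, GRHL2 by −85.49 and CDH1 by −83.66. BCL2, the 1 gene that was higher, at 3.86 points, is named after its value was seen. Of 14 basal and mesenchymal genes 2 were lower, 3 were higher and 9 overlapped, with a median of 0.55 points. VIM, the intermediate filament of mesenchymal cells, changed by −25.32 points and ACTA2, smooth muscle actin, by −13.96. The basal keratins KRT17, KRT14 and KRT5 were higher, by 35.24, 26.37 and 11.21 points. The basal and mesenchymal genes started from a mean coverage of 8.19 and 14.6% untreated, which leaves little room for a fall. The difference between the lists was not tested.

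**Figure D3:**
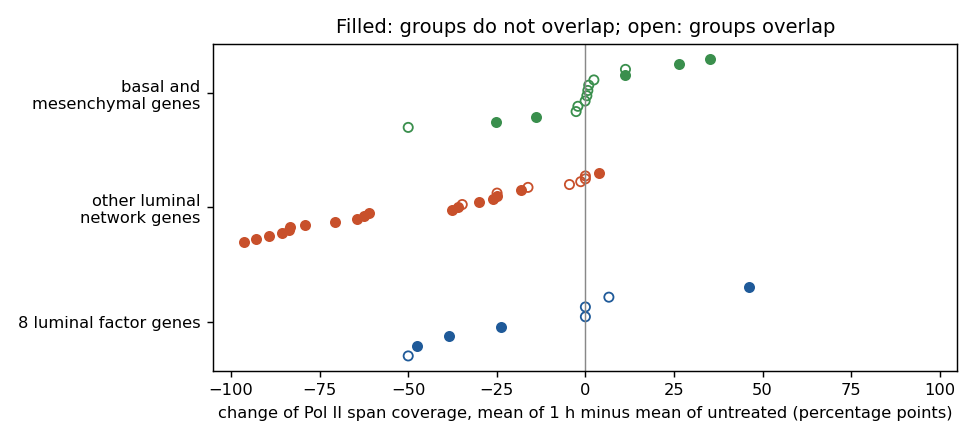
Change of Pol II span coverage from untreated to 1 h of NaCl (mean of 2 minus mean of 2 libraries, percentage points), 1 point per gene, for the 8 luminal factor genes, 25 other luminal network genes and 14 basal and mesenchymal genes. Most points of the middle row of luminal network genes lie left of 0, down to −96.38 for EHF. The basal and mesenchymal genes lie on both sides of 0, from −50 for SNAI2 to 35.24 for KRT17.

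For each gene the most similar protein-coding gene of 0.5 to 2 times its length was sought over the 4 coverages, by the root of the summed squared differences in points. For GATA3 it was RAB5C, at a distance of 2.34, and for TFAP2C it was JMJD6, at 2.78. TRPS1 was nearest to PATJ (9.07), SPDEF to ABCF1 (10.7) and ESR1 to ARHGAP32 (15.9), which had 61.3 and 70.1% untreated and 40.96 and 23.1% at 1 h. ESR1 had no nearer match among 1022 genes of like length. FOXA1 shared its 4 values exactly with 36 genes, C8orf82 named first among them, and XBP1 and ELF3 shared theirs with 111 and 108 genes, among them ACTB, the gene of cytoplasmic actin. Full coverage is a coarse measure, and these 3 genes cannot be ranked by it.

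Cohesin was mapped near every one of the 8 genes in untreated cells, and at 1 h of NaCl the RAD21 peaks near GATA3 and TRPS1 were gone from all 3 libraries. Within the span and 50 kb on either side, GATA3 had 1, 1 and 2 peaks untreated and 0, 0 and 0 at 1 h. TRPS1 had 1, 1 and 1 untreated and 0, 0 and 0 at 1 h. SPDEF had 4, 4 and 5 untreated and 1, 2 and 1 at 1 h. In these 3 genes every 1 h library was below every untreated one, 3 of 8 beside 34.3% of 17355 genes, a share near the background. Each reached p = 0.1, the smallest that the exact 2-sided permutation test allows for 3 libraries against 3.

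The other 5 genes overlapped. ESR1 had 6, 1 and 12 peaks untreated and 6, 1 and 6 at 1 h, a difference of −2.00 against an untreated SD of 5.51 (n = 3; exact permutation p = 0.9). ELF3 had 5, 3 and 5 untreated and 1, 2 and 3 at 1 h, and TFAP2C had 2, 3 and 1 against 0, 1 and 0 (exact permutation p = 0.2 for both). FOXA1 had 2, 2 and 3 against 0, 3 and 0, and XBP1 had 2, 1 and 5 against 1, 2 and 1. All 8 means were lower at 1 h in the full lists, though not with lists of equal size, nor at ESR1 without untreated replicate 3 (0.83 peaks higher). The median change of −1.50 peaks compares with −1 over all genes tested. The RAD21 lists themselves held 13762 to 24931 peaks untreated and 4761 to 7843 at 1 h. With the same number of strongest peaks taken from each list, only GATA3 was lower, 1 of 8 beside 5.25% of genes. The mean differences were then 2.67 peaks higher at 1 h at ESR1, 1 higher at XBP1 and 0.33 higher at ELF3, 0 at FOXA1 and TRPS1, and −1 at GATA3, −0.67 at SPDEF and −0.33 at TFAP2C. Per 10000 peaks of the list, the 8 windows together held 12.6, 11.6 and 13.6 peaks untreated and 18.9, 14.0 and 16.6 at 1 h. Every 1 h library was thus above every untreated one. ESR1 alone held 6 of 23, 1 of 16 and 12 of 34 of these peaks untreated and 6 of 9, 1 of 11 and 6 of 11 at 1 h. The same share was not computed without ESR1 or over other genes. Within the first of the 2 submissions alone (replicates 1 and 2), 5 genes were lower, beside 44.7% of genes.

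In recovery GATA3 was the 1 gene whose RAD21 peaks exceeded every 1 h library, with 1, 4 and 1 peaks. That is 1 of 8 beside 2.17% of 16006 genes (exact permutation p = 0.1, 2-sided, n = 3 against 3). Taken by replicate number, TFAP2C was higher in each pair as well, 2 of 8 beside 6.77% of genes. The recovery libraries disagreed: replicate 2 had 4 peaks at GATA3, 4 at FOXA1, 4 at SPDEF and 6 at ELF3, whereas replicates 1 and 3 had 0 to 2 at these genes. Their lists held 4397, 20400 and 6492 peaks. The 1 h libraries serve both comparisons.

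**Figure D4:**
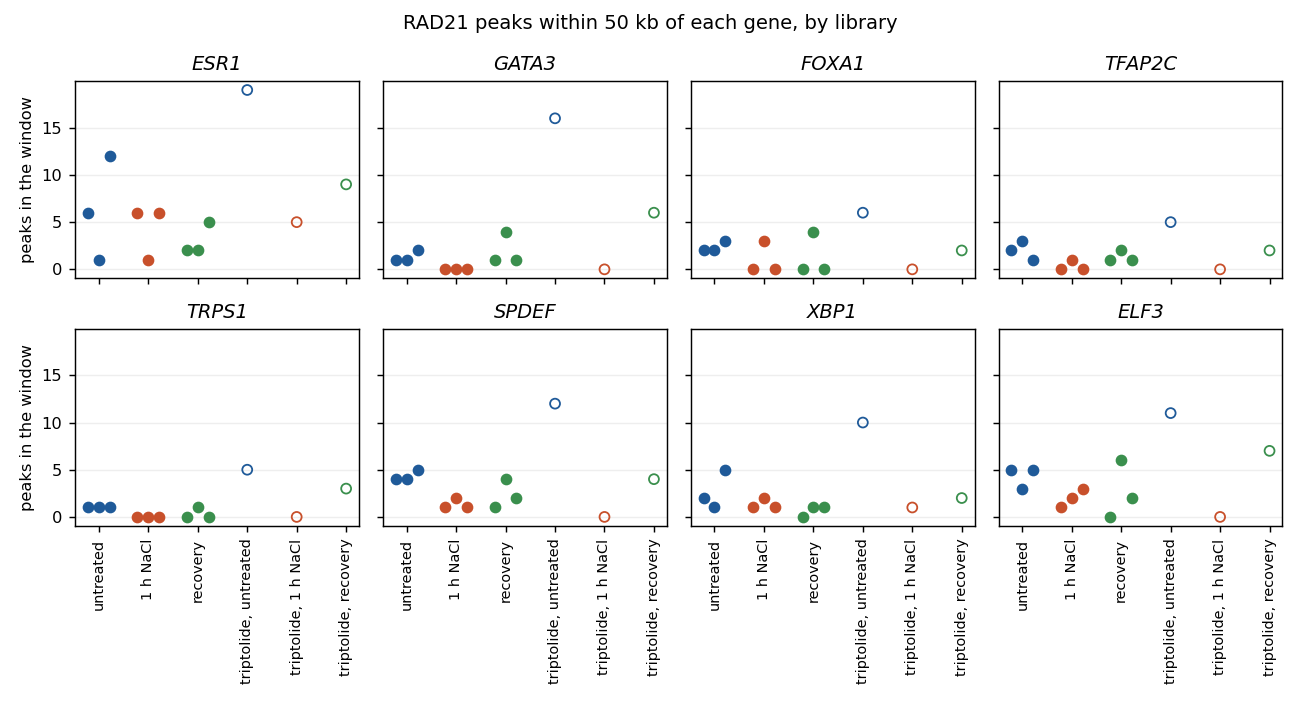
RAD21 peaks within the span and 50 kb on either side of each gene, 1 point per library, filled for cells without and open for cells with triptolide. The 1 h libraries are at 0 for GATA3 and TRPS1, and the untreated library with triptolide is the highest point in every panel, from 5 to 19 peaks.

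The single triptolide libraries stand apart in number. Without NaCl, RAD21 peaks near the genes ranged from 5 at TFAP2C and TRPS1 to 19 at ESR1 and exceeded every untreated library without the drug at 8 of 8 genes, beside 71.4% of all genes, in the largest RAD21 list (40969 peaks). GATA3 had 16 peaks there, of which 14 lay in the span, against 1 to 2 peaks without the drug. With triptolide and NaCl for 1 h, in the smallest RAD21 list (3344 peaks), 6 of the 8 genes had no RAD21 peak, beside 62.2% of the 12468 genes with a peak in every untreated library, and ESR1 had 5 and XBP1 1. In recovery with triptolide the numbers were 2 to 9, above every untreated library at GATA3 (6), TRPS1 (3) and ELF3 (7), 3 of 8 beside 15.1% of genes. Each of these conditions has 1 library, so no test was made.

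At the level of single sites, overlapping peaks of the libraries compared were merged. Near the 8 genes 12 RAD21 sites were present in all 3 untreated libraries. Of these 6 were absent from all 3 lists at 1 h, beside 32.4% of 10098 such sites in the genome, 3 were present in all of them, beside 34.5%, and 3 were present in 1 or 2. With the same number of strongest peaks from each list 3 such sites were counted and all 3 were absent at 1 h, beside 12.5% of 2863 in the genome. A CTCF peak of all 3 untreated CTCF libraries overlapped 8 of the 12 sites, or 66.7%, beside 92.6% of the sites in the genome. Of these 8 3 were kept, beside 36.9% in the genome, and 4 were absent at 1 h, beside 29.3%. Of 3 sites with CTCF in 1 or 2 untreated libraries 1 was absent at 1 h, beside 69.4%, and the 1 site without CTCF was absent too, beside 79.3%.

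The sites that stayed were a site inside ESR1 (chr6:151675662-151676276), a site 10.232 kb from SPDEF (chr6:34527142-34527570), in PACSIN1, and a site 28.75 kb from XBP1 (chr22:28829319-28829775). Fold enrichment at the ESR1 site was 16.0, 11.7 and 19.0 untreated and 5.52, 7.51 and 7.46 at 1 h, but folds of different lists are not on a common scale. Another SPDEF site, 7.764 kb away (chr6:34529590-34530038) and close to the kept one, was absent from all 3 lists at 1 h. It also held CTCF in all 3 untreated libraries and in none at 1 h, the 1 CTCF site near these genes of that kind. Neighbouring sites of 1 gene thus differed.

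The site inside GATA3 (RAD21 at chr10:8053269-8053833) was present in all untreated and all recovery libraries and absent from all 1 h libraries. The CTCF peak at the same place (chr10:8053125-8053736) was found in all 13 CTCF libraries. RefSeq lists a GATA3 start there, on the plus strand, and the window overlaps an end of the GATA3-AS1 span. It is shown because both proteins were mapped on it and RAD21 alone was absent at 1 h. Capitals mark an AP-2 match (GCCNNNGGC, in 23.2% of start windows), CCAAT boxes and GC boxes on either strand. It holds no match to the CTCF core letters given above.
GATA3 start, chr10:8053391-8053690: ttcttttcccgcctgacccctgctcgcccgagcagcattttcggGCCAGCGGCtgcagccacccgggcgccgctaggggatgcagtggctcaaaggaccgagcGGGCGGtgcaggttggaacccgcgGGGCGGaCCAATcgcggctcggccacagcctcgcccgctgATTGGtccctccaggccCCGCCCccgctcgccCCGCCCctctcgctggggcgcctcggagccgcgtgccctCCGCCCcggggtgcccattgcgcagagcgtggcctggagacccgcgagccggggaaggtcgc

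TRPS1 had its single shared RAD21 site across the higher-coordinate end of its span, on the side where Pol II coverage was absent at 1 h. A TFAP2C site at chr20:56630097-56630938, within 1 kb of a span end, was absent at 1 h too and present again in all 3 recovery libraries, as at GATA3, while its CTCF peak was kept. The SPDEF site 27.015 kb away (chr6:34583344-34583728) was absent at 1 h with CTCF kept.

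ELF3 and SPDEF had RAD21 at their starts. At ELF3 a site across the start (chr1:202010428-202011074) was present in all 3 untreated libraries and in none at 1 h, with no CTCF peak in the untreated libraries. A site 0.52 kb before the span (chr1:202009477-202010067) remained in 1 of 3. At SPDEF the start site (chr6:34555890-34556409) was in 3 of 3 untreated and 1 of 3 lists at 1 h, and CTCF there was in 2 of 3 and 1 of 3. The start windows are shown because RAD21 was mapped on both, ELF3 on the plus and SPDEF on the minus strand. Capitals mark a CCAAT box in both and a TATA box (TATAAA, in 11.5% of start windows) in ELF3.
ELF3 start, chr1:202010337-202010636: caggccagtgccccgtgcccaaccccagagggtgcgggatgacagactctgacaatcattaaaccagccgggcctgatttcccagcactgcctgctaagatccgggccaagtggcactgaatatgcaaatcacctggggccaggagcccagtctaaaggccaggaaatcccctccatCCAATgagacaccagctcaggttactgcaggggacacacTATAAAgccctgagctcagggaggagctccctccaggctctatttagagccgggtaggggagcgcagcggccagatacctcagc
SPDEF start, chr6:34556280-34556579: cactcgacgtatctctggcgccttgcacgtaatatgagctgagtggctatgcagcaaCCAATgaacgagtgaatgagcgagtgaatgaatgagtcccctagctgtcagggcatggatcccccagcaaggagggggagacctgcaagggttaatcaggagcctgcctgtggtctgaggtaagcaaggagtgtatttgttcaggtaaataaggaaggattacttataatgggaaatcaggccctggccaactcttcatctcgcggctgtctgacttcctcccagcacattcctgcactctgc

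Neither window holds the CTCF core letters, and none of the 17 start windows of ELF3, SPDEF, ESR1, GATA3, FOXA1 and XBP1 holds an oestrogen response element (GGTCANNNTGACC, found in 0.0570% of windows), a forkhead motif (TGTTTAC, in 3.42%) or a GATA motif (AGATAA, in 10.3%), on either strand.

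The numbers of CTCF peaks near most of these genes overlapped between untreated cells and 1 h. At 1 h SPDEF alone was lower in every library, with 6, 4 and 5 peaks untreated and 3, 2 and 3 at 1 h, a difference of −2.33 (SD 1.00 and 0.577, n = 3 each; exact permutation p = 0.1, the smallest possible). That is 1 of 8 beside 13.5% of 19460 genes. ESR1 had 10, 8 and 4 peaks untreated and 7, 8 and 2 at 1 h, FOXA1 6, 5 and 3 against 4, 4 and 2, and ELF3 5, 4 and 4 against 5, 4 and 3. GATA3 had 2, 1 and 1 against 1, 1 and 1, TFAP2C 3, 1 and 3 against 2, 1 and 2, and TRPS1 3, 3 and 2 against 3, 3 and 1. XBP1 had the same mean in both groups, 2.33. The median change of −0.50 peaks compares with −1.33 over all genes tested. Per 10000 peaks of the list, the 8 windows together held 6.35, 6.39 and 6.22 CTCF peaks untreated and 7.92, 7.31 and 7.27 at 1 h. Again every 1 h library was above every untreated one. ESR1 alone held 10 of 38, 8 of 28 and 4 of 24 of these peaks untreated and 7 of 28, 8 of 25 and 2 of 16 at 1 h. This share, too, was not computed without ESR1 or over other genes.

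Same-numbered CTCF libraries deviated together, and replicate 3 had fewer peaks than replicates 1 and 2 in both groups at ESR1 and FOXA1. Taken in such pairs FOXA1 was lower at 1 h as well as SPDEF, 2 of 8 beside 37.7% of genes. With lists shortened to equal numbers of strongest peaks no gene was lower, beside 2.76% of genes, and within 10 kb of the span none was, beside 7.92%.

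At 7.5 min 3 of the genes had fewer CTCF peaks in both libraries. This call takes 2 libraries against 2 and is met more readily than that at 1 h, with 3 against 3. At 7.5 min, compared with the untreated libraries of the same submission, ESR1 went from 10 and 8 peaks to 7 and 7, FOXA1 from 6 and 5 to 4 and 3 and SPDEF from 6 and 4 to 2 and 2. That is 3 of 8 beside 38% of 19285 genes, each at the smallest exact permutation p of 0.33 (2-sided). The other 5 overlapped, and ELF3 had 5 and 4 peaks at both times. Taken in pairs by replicate number, TFAP2C (3 and 1 to 2 and 0) and XBP1 (3 and 2 to 2 and 1) were lower as well, 5 of 8 beside 54.1% of genes. Without untreated replicate 2 the number was 6 of 8, beside 81.8%, and without 7.5 min replicate 1 it was 6 of 8, beside 58.4%. With equal numbers of strongest peaks SPDEF alone was lower, beside 5.66% of genes, and ESR1 was 1 peak higher on average. The 30 min library, without a replicate, had 5 peaks at ESR1, 1 at SPDEF, 0 at TFAP2C and 4 at FOXA1 and ELF3. The difference between 7.5 min and 1 h was not tested.

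In the 1 recovery library CTCF peaks numbered 5 at SPDEF, 6 at ESR1 and 7 at ELF3. ELF3 was the 1 gene above every untreated library, beside 16.7% of genes. With triptolide the untreated library had 31 peaks near the 8 genes in all, against 38, 28 and 24 without it, and ELF3, with 6, was the 1 gene above them, beside 4.76% of genes. At 1 h of NaCl with triptolide 12 peaks were found in all, against 28, 25 and 16 without it, with 0 at TRPS1, and 21 in recovery with triptolide against 33 without it.

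**Figure D5:**
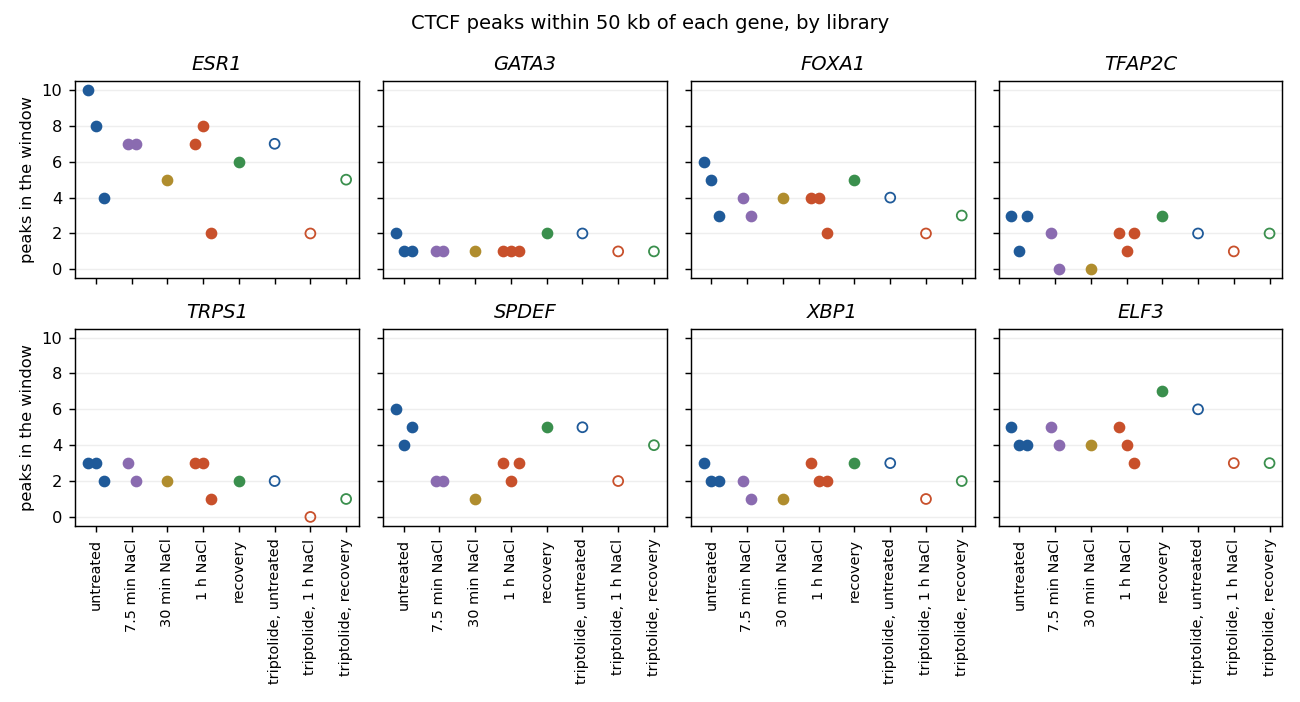
CTCF peaks within the span and 50 kb on either side of each gene, 1 point per library, filled for cells without and open for cells with triptolide. SPDEF is the 1 panel in which all 3 libraries at 1 h (2 to 3 peaks) lie below all 3 untreated ones (4 to 6).

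Most single CTCF sites shared by all 3 untreated libraries stayed. Near the 8 genes 16 sites were present in all 3 untreated libraries, of which 11 were present in all 3 at 1 h, beside 57.1% of 25596 such sites in the genome, 1 was absent from all, beside 5.85%, and 4 were present in 2. All 4 of these were missing from 1 h replicate 3 alone. Without that library 15 of 16 sites were kept, beside 88.1% in the genome. Without untreated replicate 3 more sites counted as shared, and 11 of 27 were kept, beside 35.0%, and 4 were absent, beside 22.8%. With the same number of strongest peaks 5 of 6 sites were kept, beside 77.7% in the genome, and within 10 kb of the spans 7 of 12, beside the same 57.1%. The kept sites include 1 within each of ESR1, GATA3 and TFAP2C and both sites within FOXA1. They also include a site 0.611 kb before ELF3 (chr1:202009374-202009976) and a site 28.779 kb from XBP1 (chr22:28829348-28829929), whose −log10 p stood at percentiles 98.1, 85.5 and 69.5 of the 3 untreated lists. At 7 of the 8 genes at least 1 CTCF site was kept, and at TRPS1 the 1 shared site (chr8:115586873-115587369) was in 2 of 3 lists at 1 h.

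Side by side, the 3 proteins gave different patterns at single genes. GATA3 was lower in Pol II span coverage and had no RAD21 peak at 1 h, while its CTCF site was kept. TRPS1 was lower in Pol II and RAD21 as well. SPDEF had fewer CTCF and RAD21 peaks and more Pol II coverage in the full lists, but with equal numbers of strongest peaks neither count was lower in every library, and the coverage was absent at a −log10 q of at least 1.3. The RAD21 call at TRPS1 ended with equal numbers of peaks too, and the Pol II call at GATA3 when coverage was divided by the length covered. ESR1 was lower in Pol II span coverage with CTCF and RAD21 numbers that overlapped between untreated and 1 h. XBP1 and ELF3 overlapped in CTCF, RAD21 and, in the full lists, span coverage, which was 100% in every library. With Pol II regions of a −log10 q of at least 1.3 alone, XBP1 was lower, with a change of −100 points. In the full lists the flanks of XBP1 were lower at 1 h and those of ELF3 higher.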

How the data were processed

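ChIP-seq of CTCF, RAD21 and Pol II in T47D cells was read from 29 deposited peak lists, while 12 input samples carry no list. Per the submitters' processing notes the tools were cutadapt, Bowtie2 2.2.6 and MACS2, with DiffBind 2.4.6, DESeq2 and HOMER for the first submission, and the build hg38. The roles of these tools and the control are not stated in the sources used, nor is the calling threshold. For each peak the authors deposited a score, a ratio (fold enrichment) and −log10 p and −log10 q values, and these served to order, filter or describe the peaks of 1 list at a time.

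Peaks on chromosomes 1 to 22 and X were analysed with Python 3.11.15, numpy 2.4.6 and pandas 2.3.3. Coverage is the share of the RefSeq span (GRCh38.p14) under the union of Pol II regions, and CTCF and RAD21 peaks were counted where they overlapped the span or 50 kb on either side by at least 1 bp. Groups were taken from the titles. The pre-treatment tag contradicts the title in 6 libraries, several replicate tags differ from the titles, and the series text gives 100 mM NaCl where the titles give 110 mM. A gene was called lower or higher when the groups did not overlap, and each was tested with an exact 2-sided permutation test. Scripts were tested on simulated data. The design had no count model because a peak list has no counts, and the depth of the libraries is unknown.

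The titles number replicates 1 and 2, and a separate submission supplies replicate 3. Same-numbered libraries deviated together from their group means across genes for CTCF (r = 0.41, 0.63 and 0.63 at 1 h, 0.33 at 7.5 min). So did those for RAD21 at 1 h and in recovery (0.27, 0.26 and 0.15). In these comparisons the libraries were also read as pairs by replicate number. The exact permutation tests relabelled all libraries freely and took no account of the pairs or of the submissions. The correlations were −0.02, 0.15 and 0.14 for RAD21 untreated and at 1 h and 0.04 for Pol II.

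The 8 genes, the 26 other luminal and 14 basal genes and all settings were chosen with earlier results of these data known. Named genes are the 8 genes, up to 5 of each list with the largest change among those whose groups did not overlap, and the nearest gene to each of the 8. The flanks split by strand, the pieces of the span, RAD21 sites by CTCF, the core promoter motifs, the peaks of the windows relative to the size of the list and the comparison within the first submission were added after seeing the data.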

Additional observations from a re-analysis of the deposited data

Results flagged for a closer look

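Libraries outside the comparisons, with 1 library per condition, held more peaks near some of the 8 genes than any untreated library without the drug. In the untreated triptolide library of RAD21 this was so at every one of the 8 genes: ESR1 had 19 peaks against at most 12, GATA3 16 against 2, FOXA1 6 against 3, TFAP2C 5 against 3, TRPS1 5 against 1, SPDEF 12 against 5, XBP1 10 against 5 and ELF3 11 against 5. That list is also the largest, and 71.4% of all genes had more peaks in it. In recovery with triptolide RAD21 had 6 peaks at GATA3, 3 at TRPS1 and 7 at ELF3, against at most 2, 1 and 5 untreated. ELF3 had 6 CTCF peaks in the untreated triptolide library and 7 in the recovery library, against at most 5. None of these differences was tested.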

How the results depend on the processing

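Peak lists carry no counts, so depth could not be had, and full coverage hides any increase. The counts of genes or sites below were recomputed under each setting. With regions of −log10 q of at least 1.3 alone, 5 genes rather than 3 were lower in Pol II span coverage, 0 rather than 3 were higher past the end, and the flank change of SPDEF turned to −2.67 points. With lists shortened to equal numbers of strongest peaks, CTCF counts were 0 rather than 1 gene lower at 1 h, 1 rather than 3 at 7.5 min, where ESR1 turned to 1 peak higher, and 5 rather than 11 kept sites, and RAD21 counts were 1 rather than 3 genes lower and 3 rather than 6 sites absent at 1 h. With a 10 kb window 0 genes were lower in CTCF at 1 h and 7 CTCF sites were kept. With libraries paired by replicate number (replicate block), 2 genes were lower in CTCF at 1 h, 5 at 7.5 min and 5 in RAD21 at 1 h, beside 37.7, 54.1 and 40.9% of all genes, and 2 were higher in RAD21 in recovery, beside 6.77%, and the Pol II counts were as without the block, at 3 for the span, 4 for the flanks and 3 past the end. Within the first submission, a comparison chosen after seeing the data, 2 genes were lower in CTCF and 5 in RAD21 at 1 h. Leaving out 1 library at a time gave 1 to 2 genes for CTCF at 1 h, 3 to 6 at 7.5 min, 3 to 5 for RAD21 at 1 h, 1 to 2 in recovery, and 6 to 10 absent RAD21 sites. The 10 sites came without untreated RAD21 replicate 2, the 5 genes without RAD21 1 h replicate 2, and the 6 genes without untreated CTCF replicate 2 or without 7.5 min replicate 1. The cause was not tested. Of 85 recomputed counts 63 stayed within 1.5 times the reported one. Of 384 recomputed differences of single genes 334 moved by less than 1 SD of the replicates and 19 changed sign, 2 of them where the groups did not overlap.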
